A study of Mus musculus with 8 samples.

Results

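The 10 genes described here encode proteins of heme breakdown and synthesis, iron transport and antioxidant defence: Hmox1, Hmox2, Blvra, Blvrb, Alas1, Slc40a1, Tfrc, Nqo1, Gclc and Gclm. They were listed by name and chosen by the measured range of Hmox1 among the mice, and the question is which of the others go with it. All 10 had exactly 1 single-symbol probe set on the array and all 10 were above the limit of dim signal, out of 22180 named genes of which 13229 were above it. That limit, 2.88 log2, is the 95th percentile of the values of 1405 olfactory and vomeronasal receptor probe sets, and a gene was tested where at least 3 arrays lay above it. The spread of Hmox1 chose the set, so the spread, and how the other genes go with it, are given as a description with no test. The comparison of genotypes was not used in that choice and is tested.

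Brown fat, whose cells burn lipid for heat, was taken from 5 male mice labelled Abhd15 KO (KO-labelled below) and 3 male wild-type (WT) mice, 1 sample per array. The labels speak of individual samples, read here as 1 mouse each, and p-values measure the spread between these samples. All 8 were on a C57BL/6J background and on normal chow, and all were fasted overnight and given chow again for 1 h before harvest. The age is given as 14 weeks, although the chow is elsewhere said to have lasted up to 14 weeks. The labels state neither the deleted part of Abhd15 nor whether the deletion was limited to a tissue. Values are log2 signals from 1-colour Affymetrix Mouse Gene 2.0 ST arrays hybridised with cDNA from 200 ng of total RNA. Arrays give no read depth, and their number limits the precision. Abhd15, which encodes a hydrolase-fold protein found mainly in fat cells, averaged 6.12 ± 0.27 log2 in the KO-labelled arrays (SD, n = 5) and 6.01 ± 0.19 in WT (SD, n = 3), so it was not lower under that label. A probe set outside the deleted part would check nothing, and the directions given here therefore depend on the labels. The brown fat genes Ucp1, Cidea and Cox8b read between 11.2 and 12.9 in all 8 arrays. In tissue RNA, fewer cells of a type and less RNA per cell cannot be told apart.

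Heme oxygenase opens the heme ring and releases iron, carbon monoxide and biliverdin, which biliverdin reductase turns into bilirubin. HMOX1 is the inducible oxygenase. Its gene is held down by the heme-sensing repressor BACH1 and driven by NRF2, a transcription factor freed from KEAP1 by oxidants and electrophiles. NRF2 with small MAF proteins binds antioxidant response elements, and NQO1, a quinone reductase, and both subunits of the enzyme that starts glutathione synthesis (GCLC and GCLM) are textbook targets of it. Ferroportin (SLC40A1) exports the iron that heme breakdown frees. Brown fat is rich in mitochondria and therefore in heme proteins.

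Promoter windows of 3 of the genes are shown as examples. Gclm and Nqo1 are among those that went with Hmox1, and Blvra, which did not, is set beside them. Each is the 250 bases before an annotated transcript start in the RefSeq promoter table, build GRCm38.p6, written 5′ to 3′ on the gene's strand. Capitals mark matches to the core of the antioxidant response element, TGACNNNGC, searched on both strands. The Gclm window is chr3:122245307-122245556 on the plus strand, the Nqo1 window chr8:107403206-107403455 on the minus strand and the Blvra window chr2:127070407-127070656 on the plus strand.
Gclm: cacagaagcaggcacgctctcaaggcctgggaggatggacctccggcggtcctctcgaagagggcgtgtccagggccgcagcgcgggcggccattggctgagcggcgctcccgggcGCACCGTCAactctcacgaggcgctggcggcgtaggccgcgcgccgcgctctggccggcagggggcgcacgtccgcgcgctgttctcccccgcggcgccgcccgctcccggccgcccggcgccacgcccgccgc
Nqo1: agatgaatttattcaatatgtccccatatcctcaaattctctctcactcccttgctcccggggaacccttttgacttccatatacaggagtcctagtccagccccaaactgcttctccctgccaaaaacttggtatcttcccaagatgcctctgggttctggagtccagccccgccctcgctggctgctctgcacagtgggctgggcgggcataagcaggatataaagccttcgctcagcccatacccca
Blvra: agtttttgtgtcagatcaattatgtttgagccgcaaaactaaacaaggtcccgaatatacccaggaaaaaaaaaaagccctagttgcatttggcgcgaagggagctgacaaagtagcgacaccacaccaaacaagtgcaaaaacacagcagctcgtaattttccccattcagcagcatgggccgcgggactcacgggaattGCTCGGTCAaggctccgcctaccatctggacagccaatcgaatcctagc
The match in Gclm starts 134 bases before the transcript start and that in Blvra 49 bases before it, both on the opposite strand. The Nqo1 window holds none. Windows were found for 7 of the 10 genes (12 windows, several for some genes), and none for Hmox1, Slc40a1 and Gclc. Of the 12, 2 (16.7%) held the motif, against 12.4% of all 32851 windows. Matches were counted over each sequence as stored, which may extend beyond the 250 bases shown. One match was in a gene that went with Hmox1 and the other in a gene that did not. A match is a run of letters, not a shown binding site, and its absence here says only that these letters are not in this window.

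Hmox1 differed 9.98-fold between the lowest and the highest mouse; the high end was reached under both labels, and the lowest mouse was WT. Hmox1 (probe set 17502573) read 7.66, 7.37, 7.27, 8.73 and 9.82 log2 in KO-labelled replicates 1 to 5, against 9.71, 6.50 and 7.94 in WT replicates 1 to 3. The highest arrays, KO-labelled replicate 5 and WT replicate 1, differ by only 0.10, while WT replicate 2 lies 0.77 below the next array. The range was 3.32 log2, where the median range over all tested genes was 0.67 log2. Counting Hmox1 itself, 36 of the 13229 tested genes (0.272%) had an SD over the 8 arrays as large as its 1.19. In order of Hmox1, KO-labelled replicates 1 to 3 and WT replicate 3 lay between 7.27 and 7.94. Gaps of 0.79 and 0.98 on either side of KO-labelled replicate 4 set the 2 highest arrays apart, so that a correlation with Hmox1 over the 8 arrays leans on them. For the other genes of the set, and for some further genes, it is therefore also given without these 2 arrays.

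The group means of Hmox1 lay close together beside the spread within each group. It averaged 8.17 ± 1.09 log2 in the KO-labelled arrays (SD, n = 5) and 8.05 ± 1.61 in WT (SD, n = 3). The difference was 0.12, with a 95% interval from -1.59 to 1.83 (limma, adjusted p = 0.9997). Permuting the labels exactly gave a two-sided p of 0.929. The interval runs from 0.331-fold to 3.56-fold, so these arrays bound a genotype difference in Hmox1 only loosely. The difference was 0.95 without WT replicate 1, -0.66 without WT replicate 2, -0.29 without KO-labelled replicate 5 and -0.02 without KO-labelled replicate 4.

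**Figure D1:**
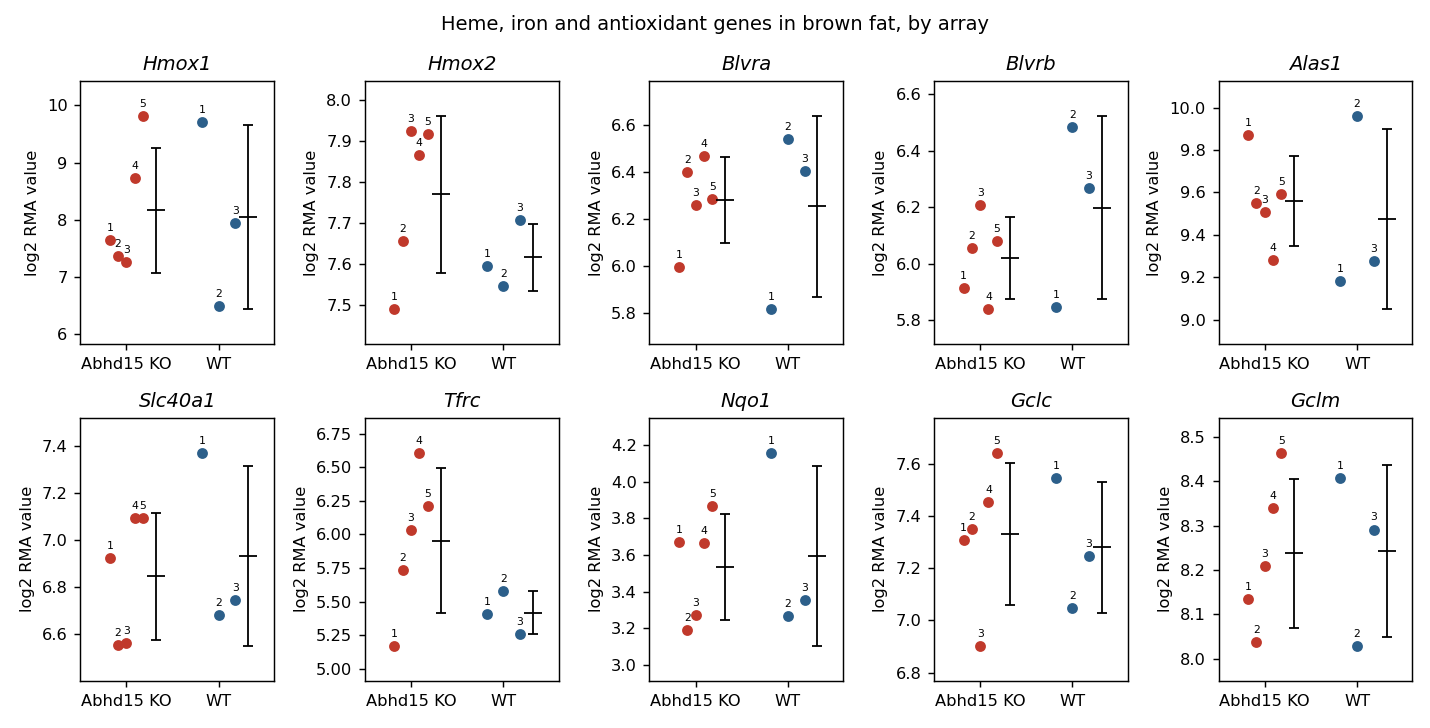
Log2 values of the 10 genes in each array, with KO-labelled arrays on the left of each panel and WT on the right; numbers are replicates, and the bars beside the points are the mean ± SD (n = 5 and n = 3). Hmox1 runs from 6.50 to 9.82, and the groups overlap in all 10 genes.

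The constitutive oxygenase Hmox2 did not share this range. Hmox2 (probe set 17322559) read 7.49, 7.66, 7.92, 7.87 and 7.92 log2 in KO-labelled replicates 1 to 5, against 7.60, 7.55 and 7.71 in WT replicates 1 to 3. Its range of 0.44 log2 is 1.35-fold, narrower than the median gene. Pearson's r with Hmox1 over the 8 arrays was 0.34 and Spearman's rho 0.24, and r was 0.44 without the 2 arrays farthest from the Hmox1 median. KO-labelled replicate 3, low in Hmox1, had as much Hmox2 as KO-labelled replicate 5, the highest in Hmox1. The groups differed by 0.15 (95% confidence interval -0.14 to 0.45).

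The biliverdin reductase genes, which act after the oxygenases, did not share the range of Hmox1 either, and their r with it was below 0. Blvra (probe set 17375767) read 5.99, 6.40, 6.26, 6.47 and 6.28 log2 in KO-labelled replicates 1 to 5, against 5.81, 6.54 and 6.40 in WT replicates 1 to 3. WT replicate 1, high in Hmox1, had the lowest Blvra, and WT replicate 2, the lowest in Hmox1, the highest. KO-labelled replicate 4, the third highest in Hmox1, had the second highest Blvra. Its r with Hmox1 was -0.48 with all 8 arrays, -0.15 without WT replicate 1 and -0.61 without KO-labelled replicate 5, so the relation rests on WT replicate 1. Without both of these, the arrays farthest from the Hmox1 median, it was -0.08. Blvrb (probe set 17475580), the reductase of the other biliverdin isomers and of flavins, read 5.92, 6.06, 6.21, 5.84 and 6.08 log2 in the KO-labelled arrays, against 5.85, 6.48 and 6.27 in WT. It was again lowest in WT replicate 1 within WT and highest in WT replicate 2. Its r with Hmox1 was -0.65, and -0.78 without the 2 farthest arrays. The group differences were 0.03 (-0.38 to 0.43) for Blvra and -0.18 (-0.53 to 0.18) for Blvrb. That of Blvrb was -0.36 without WT replicate 1 and -0.0363 without WT replicate 2.

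Alas1, the first and rate-limiting enzyme of heme synthesis outside red cells, ran against Hmox1 in most arrays. Alas1 (probe set 17530653) read 9.87, 9.55, 9.51, 9.28 and 9.59 log2 in KO-labelled replicates 1 to 5, against 9.18, 9.96 and 9.28 in WT replicates 1 to 3. The highest array was WT replicate 2, where Hmox1 was lowest, and the lowest was WT replicate 1. Replicate 5 labelled Abhd15 KO did not follow this, with Hmox1 at its highest and Alas1 in the upper part of its range. Pearson's r was -0.60 and Spearman's rho -0.48, and r was -0.76 without the 2 arrays farthest from the Hmox1 median. The 2 arrays highest in Alas1, WT replicate 2 and KO-labelled replicate 1, were also those lowest in Angptl8, a gene induced by feeding (7.95 and 7.90 log2, against 10.42 to 10.81 in the other 6 arrays). Without that pair r was -0.28. Alas1 is known to be induced by fasting in mouse liver, and the part of feeding state in these values was not tested. The groups differed by 0.09 (-0.36 to 0.53).

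The iron exporter went with Hmox1 and the iron importer did not. Slc40a1 (probe set 17222777) read 6.92, 6.55, 6.56, 7.09 and 7.10 log2 in KO-labelled replicates 1 to 5, against 7.37, 6.68 and 6.74 in WT replicates 1 to 3. The 3 arrays highest in Slc40a1 were the 3 highest in Hmox1. Its r with Hmox1 was 0.87 (Spearman's rho 0.86), and 0.74 without the 2 farthest arrays. The range was 1.76-fold, and the fitted slope 0.21 log2 of Slc40a1 for each log2 of Hmox1. The groups differed by -0.09 (-0.55 to 0.37).

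Tfrc encodes the transferrin receptor, by which cells take up iron and whose messenger is stabilised when cellular iron is low. Tfrc (probe set 17324835) read 5.17, 5.73, 6.04, 6.61 and 6.21 log2 in KO-labelled replicates 1 to 5, against 5.41, 5.58 and 5.26 in WT replicates 1 to 3. The KO-labelled arrays held the 4 highest values and also the lowest. Among the 10 genes it had the largest group difference, 0.54 (95% confidence interval -0.09 to 1.17, limma adjusted p = 0.9997), or 1.45-fold, and the exact two-sided permutation p was 0.179. It averaged 5.95 ± 0.54 in the KO-labelled arrays (SD, n = 5) and 5.42 ± 0.16 in WT (SD, n = 3). Over the arrays left out in turn the difference ranged from 0.37 to 0.73, the highest without KO-labelled replicate 1. Its r with Hmox1 was 0.28 (rho 0.19), and 0.44 without the 2 farthest arrays. Tfrc went rather with Hmox2 (r = 0.81 over the 8 arrays).

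Gclm, Gclc and Nqo1, the genes called textbook NRF2 targets above, went with Hmox1 in narrower ranges. Gclm (probe set 17402283), the regulatory subunit of glutamate-cysteine ligase, read 8.13, 8.04, 8.21, 8.34 and 8.46 log2 in KO-labelled replicates 1 to 5, against 8.41, 8.03 and 8.29 in WT replicates 1 to 3. The order of its 3 highest arrays, KO-labelled replicate 5, WT replicate 1 and KO-labelled replicate 4, is that of Hmox1. Its r was 0.93 (rho 0.93), 0.84 without the 2 farthest arrays and between 0.89 and 0.95 with each array left out. Gclc (probe set 17519579), the catalytic subunit, read 7.31, 7.35, 6.90, 7.45 and 7.64 log2 in the KO-labelled arrays, against 7.54, 7.05 and 7.24 in WT. The same 3 arrays were highest and in the same order, while KO-labelled replicate 3 was the lowest in Gclc although WT replicate 2 was the lowest in Hmox1. Its r was 0.86 (rho 0.88), and 0.71 without the 2 farthest arrays.

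Nqo1 was dim in every mouse. Nqo1 (probe set 17512732) read 3.67, 3.19, 3.27, 3.66 and 3.87 log2 in KO-labelled replicates 1 to 5, against 4.16, 3.27 and 3.35 in WT replicates 1 to 3. Signals this close to the dim limit of 2.88 understate fold changes, and its 1.95-fold range is given with that limit. WT replicate 1 was the highest and KO-labelled replicate 5 the next. Its r with Hmox1 was 0.88 (rho 0.83), and 0.68 without the 2 farthest arrays. Nqo1 and Slc40a1 went together more closely than either did with Hmox1 (r = 0.98). For each log2 of Hmox1 the fitted slope was 0.25 log2 for Nqo1, 0.18 for Gclc and 0.13 for Gclm. The groups differed by -0.06 (-0.59 to 0.47) in Nqo1, 0.05 (-0.35 to 0.46) in Gclc and -0.00 (-0.31 to 0.30) in Gclm.

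**Figure D2:**
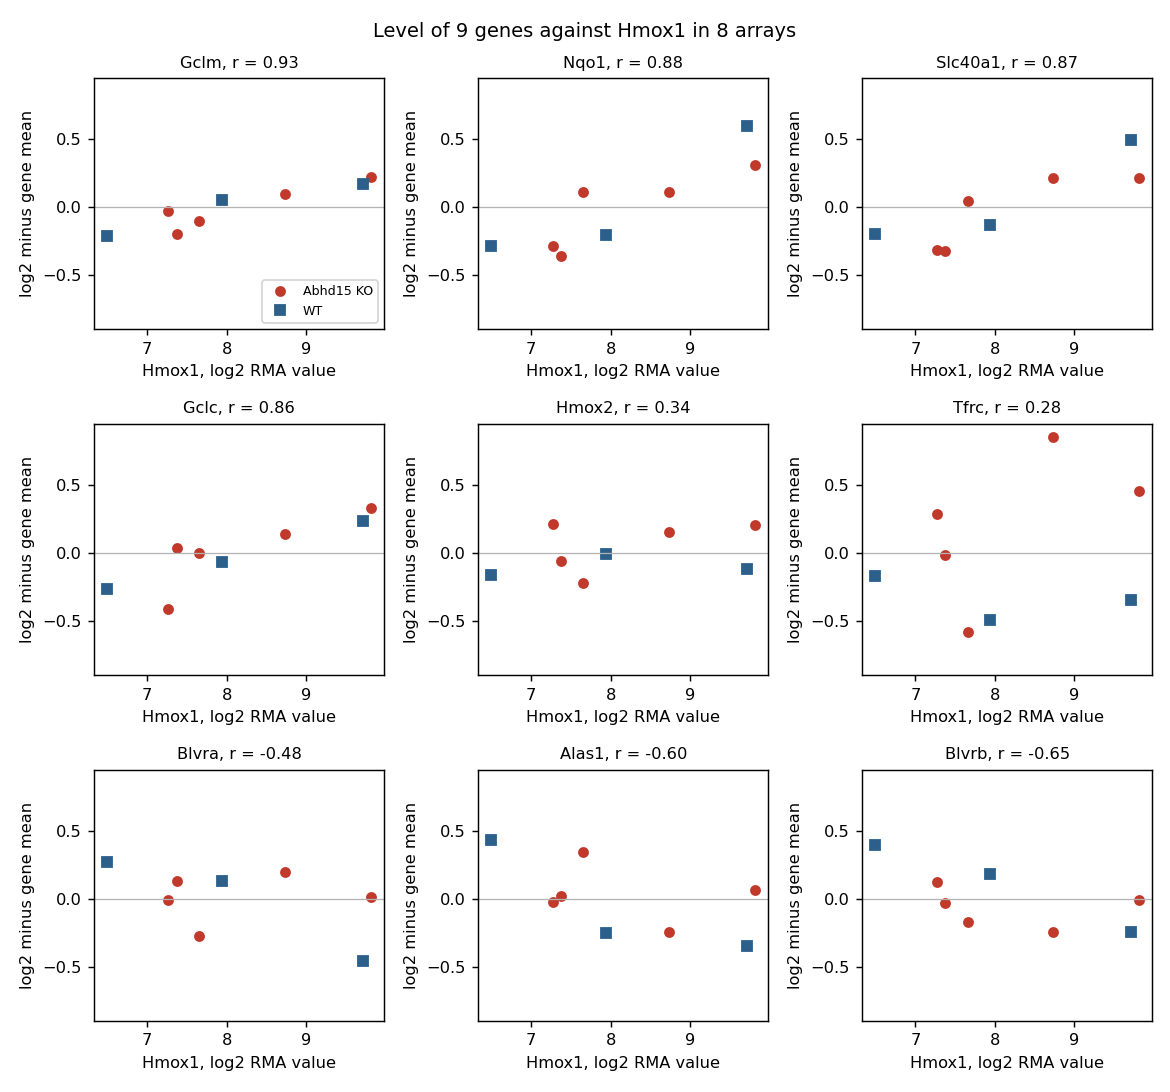
Each of the other 9 genes (log2 value minus the gene's mean over 8 arrays) plotted against the log2 value of Hmox1, with circles for KO-labelled arrays and squares for WT. Gclm, Nqo1, Slc40a1 and Gclc slope upward with r between 0.86 and 0.93, Hmox2 and Tfrc scatter, and Blvra, Alas1 and Blvrb slope downward.

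Of the other 9 genes 4 had an r of at least 0.8 with Hmox1. Over the 13228 other tested genes 1.94% had one, the median r was -0.02, and the 5th and 95th percentiles were -0.73 and 0.70. Genes with an r as high as that of Gclm numbered 22, as Nqo1 79, as Slc40a1 104 and as Gclc 119, each count including the gene itself. The members were listed with earlier results of these data known, so the share is a description. Without the 2 arrays farthest from the Hmox1 median, the 95th percentile of r over all tested genes was 0.737. Only Gclm (0.84) then lay above it, while Slc40a1 (0.735), Gclc (0.71) and Nqo1 (0.68) lay below it. After subtracting each group's mean, r was 0.93 for Gclm, 0.89 for Nqo1, 0.89 for Slc40a1 and 0.86 for Gclc, so that the relation is one among mice of the same label. Without WT replicate 2 and KO-labelled replicate 1, the pair lowest in Angptl8, r was 0.89 for Gclm, 0.95 for Nqo1, 0.94 for Slc40a1 and 0.85 for Gclc.

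The genes most like Hmox1 over the 8 arrays by Pearson's r were not heme or iron genes. The 6 highest were Nav1 (r = 0.97), a neuron navigator family gene, Lrrc8d (0.97, but 0.53 with the mean of all its probe sets), a subunit of volume-regulated anion channels, Mettl18 (0.97), a histidine methyltransferase, Tnfrsf1a (0.96), the main receptor of tumour necrosis factor, Safb (0.96), a nuclear matrix protein, and Usp6nl (0.96), a Rab GTPase-activating protein. The 4 lowest were Higd2a (-0.97), a respiratory chain assembly factor, Fbln7 (-0.97), a fibulin of the extracellular matrix, Dmac2l (-0.97) and Lrig3 (-0.96). Their own ranges were small beside that of Hmox1: Nav1 lay between 6.72 and 7.48 log2 and Higd2a between 9.40 and 9.63.

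In the list of NRF2 targets and glutathione genes, which holds Hmox1, Nqo1, Gclc and Gclm, the direction was mixed. Of 36 genes listed, 30 had a named probe set and 29 were tested. With limma, 0 of the 29 passed an adjusted p of 0.05 in either direction (0 at an unadjusted p under 0.05), the background being 0.0% of the 13229 tested genes (4.01% at an unadjusted p under 0.05). The median difference was -0.00, against 0.01 over all tested genes. Without Hmox1, Nqo1, Gclc and Gclm, 5 of 25 had an r with Hmox1 of at least 0.5 and 9 of 25 an r of -0.5 or below, against 15.2% and 16.3% of all tested genes. The median r of these 25 was -0.25. Without WT replicate 2 and KO-labelled replicate 1 the counts were 7 and 5 of 25. The share of all tested genes was not counted without that pair, so these counts have no background. The genes given next were chosen after their r was seen.

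Srxn1, which encodes sulfiredoxin, a repair enzyme of peroxiredoxins, followed Hmox1 closely. Srxn1 read 5.77, 5.66, 5.62, 6.20 and 6.26 log2 in KO-labelled replicates 1 to 5, against 5.99, 5.44 and 5.81 in WT replicates 1 to 3 (r = 0.91, and 0.98 without the 2 farthest arrays). Glutathione synthetase (Gss, r = 0.80) and thioredoxin reductase 1 (Txnrd1, r = 0.73) went the same way. Cbr1, a carbonyl reductase, went the other way, with 9.14, 9.14, 9.36, 8.96 and 8.95 log2 in the KO-labelled arrays, against 9.03, 9.52 and 9.18 in WT (r = -0.86). So did the glutathione transferases Gsta4 (r = -0.76) and Gstp1 (r = -0.70) and aldehyde oxidase 1 (Aox1, r = -0.73). Without the 2 farthest arrays these were -0.06 for Gsta4, -0.40 for Gstp1 and -0.73 for Aox1, so that of Gsta4 rests on those arrays.

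By the rule fixed for naming genes of a list, the lowest unadjusted p in this group belonged to the efflux pump Abcc4 (difference 0.39, -0.05 to 0.83), Trim16 (-0.30, -0.65 to 0.06) and the glutathione transferase Gsta3 (-0.23, -0.68 to 0.23), none of which passed. Apart from Hmox1, the widest spread belonged to the epoxide hydrolase Ephx1 (5.80 to 7.16 log2), Akr1b8 (2.44 to 3.81) and the malic enzyme Me1 (10.12 to 11.40), which supplies NADPH and also serves fatty acid synthesis. Slc7a11, the cystine importer, was below the dim limit in all arrays.

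Of the regulators of NRF2, 10 of 11 listed genes were tested, and 0 passed in either direction (1 higher at an unadjusted p under 0.05). Nfe2l2, which encodes NRF2, read 8.37, 9.13, 9.10, 9.10 and 9.26 log2 in KO-labelled replicates 1 to 5, against 8.97, 8.21 and 9.28 in WT replicates 1 to 3. It was lowest in WT replicate 2 and in KO-labelled replicate 1, the pair low in Angptl8. Its r with Hmox1 was 0.53 over all 8 arrays and -0.11 without that pair, so the relation rests on the pair. The repressor gene Bach1 had an r of -0.33, and -0.53 without the pair, and Keap1 an r of 0.53, and 0.31 without it. Sqstm1, chosen after its r was seen, encodes p62, which removes KEAP1 and is itself an NRF2 target. It read 9.99, 9.71, 9.94, 10.12 and 10.28 log2 in the KO-labelled arrays, against 10.42, 9.81 and 9.76 in WT (r = 0.87, rho 0.71, and r = 0.58 without the 2 farthest arrays). Bach2, a relative of BACH1 best known in lymphocytes, had the lowest unadjusted p, with a difference of 0.43 (0.05 to 0.81). The small MAF gene Maff differed by 0.42 (-0.42 to 1.27) and had the widest spread, from 3.34 to 5.07 log2. Mafk lay between 3.88 and 4.94 log2.

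Most heme synthesis genes had an r with Hmox1 below 0. Of 14 listed genes 12 were tested, 0 passed in either direction and 0 had an unadjusted p under 0.05, with a median difference of 0.00 between the groups. Their median r with Hmox1 was -0.56. Of the 12, 9 were below 0, against 6765 of the 13228 tested genes other than Hmox1. An r of -0.5 or below was found in 7 of 12, against 16.3% of all tested genes. Without WT replicate 2 and KO-labelled replicate 1 the median r was -0.31 and 5 of 12 were -0.5 or below. Without the 2 arrays farthest from the Hmox1 median 4 of 12 were. Named after their r was seen, Alad, the second enzyme of the pathway, had an r of -0.78, and Ppox, its next to last step, an r of -0.77. Alad read 7.04, 7.22, 6.94, 6.82 and 6.96 log2 in KO-labelled replicates 1 to 5, against 6.67, 7.33 and 6.999 in WT replicates 1 to 3. Its highest array was WT replicate 2 and its lowest WT replicate 1, as for Alas1. Ferrochelatase (Fech), which inserts the iron, had an r of -0.46, and -0.14 without WT replicate 2 and KO-labelled replicate 1.

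Apart from Alas1, which had the widest spread, the lowest unadjusted p and the widest spread in this list fell on the same 3 genes. The mitochondrial glycine carrier Slc25a38 differed by 0.26 (-0.08 to 0.61), the mitochondrial transporter Abcb10 by -0.25 (-0.63 to 0.13) and Cpox, coproporphyrinogen oxidase, by 0.16 (-0.23 to 0.56). The mean of the 12 genes was taken relative to its mean over all arrays. It ranged from -0.09 to 0.07 log2 in the KO-labelled arrays and from -0.08 to 0.13 in WT. The r of this mean with Hmox1 was -0.79, and -0.89 without the 2 arrays farthest from the Hmox1 median. No background was computed for the r of a list mean.

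**Figure D3:**
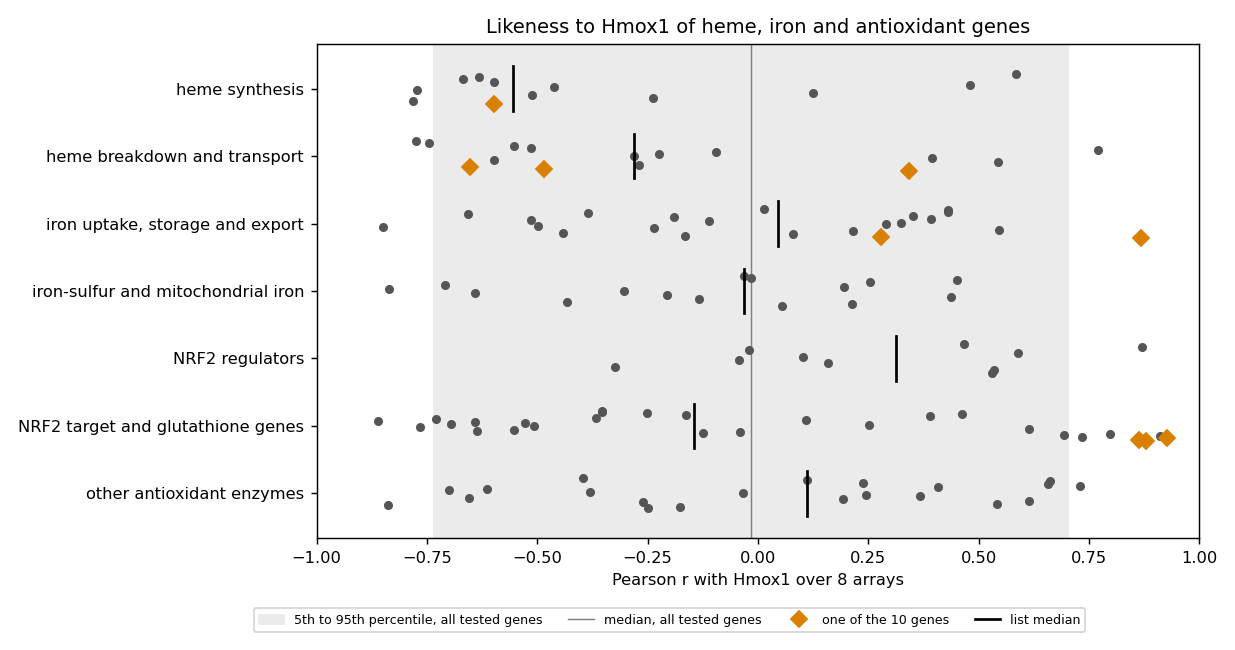
Pearson's r with Hmox1 over 8 arrays for each tested gene of 7 lists, with diamonds for the 10 genes, a black bar at each list's median and grey shading from the 5th to the 95th percentile of all tested genes (-0.73 to 0.70). The heme synthesis list is centred at -0.56, and NRF2 targets spread to both ends.

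In the wider list of heme breakdown and transport, 16 of 16 genes were tested and 0 passed in either direction (1 at an unadjusted p under 0.05). That gene was Hpx, the plasma heme carrier hemopexin, with a difference of 0.37 (0.02 to 0.72), but its WT mean of 2.87 lay at the dim limit. Apart from Hmox1, Hebp2, a heme-binding protein, had the widest spread, from 2.91 to 4.58 log2, and differed by -0.52 (-1.35 to 0.32). Haptoglobin (Hp) differed by -0.17 (-0.71 to 0.36). The heme exporter Flvcr1 lay between 6.47 and 7.46 log2, with an r of -0.27 with Hmox1 over all arrays and 0.14 without WT replicate 2 and KO-labelled replicate 1. Cd163, the hemoglobin scavenger receptor of macrophages, had an r of -0.10, and 0.31 without that pair.

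In the list of iron uptake, storage and export, 22 of 29 genes were tested and 0 passed in either direction (1 at an unadjusted p under 0.05). Slc11a2, the iron transporter DMT1 of endosomes, had the lowest unadjusted p, with 5.90, 5.84, 5.94, 5.70 and 5.97 log2 in the KO-labelled arrays, against 5.56, 5.54 and 5.64 in WT. Its groups did not overlap, as in 2.77% of all tested genes, and it differed by 0.29 (0.06 to 0.53). Steap4, a metalloreductase, differed by -0.27 (-0.63 to 0.09). The ferritin heavy chain Fth1 stayed between 12.30 and 12.38 log2. Aco1, whose protein is the iron-sensing regulator IRP1 when it lacks its cluster, had an r of -0.85 with Hmox1 and was picked for it. The hepcidin gene Hamp was below the dim limit in both group means.

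Hjv, which encodes hemojuvelin and is strongly expressed in skeletal muscle, had the widest spread of the iron genes. It read 4.60, 3.53, 4.39, 5.62 and 4.38 log2 in KO-labelled replicates 1 to 5, against 6.63, 5.25 and 4.33 in WT replicates 1 to 3 (difference -0.90, -2.11 to 0.31). Its highest array, WT replicate 1, was the highest in the mean of 5 muscle genes, and its lowest, KO-labelled replicate 2, the lowest in that mean. Tfr2 (3.34 to 4.50 log2) and Hephl1 (3.02 to 4.04 log2) were the next in spread after Tfrc.

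Markers of other cell types were set beside Hmox1, since macrophages that clear red cells are rich in it. The mean of 8 tested macrophage genes was taken relative to its mean over all arrays. It ranged from -0.33 to 0.38 log2 in the KO-labelled arrays and from -0.23 to 0.28 in WT. Its r with Hmox1 was -0.34, and -0.06 without the 2 farthest arrays. Taken singly, 6 of the 8 genes had an r below 0 and 2 above it, with a median of -0.23. Of the 13228 tested genes other than Hmox1, 6765 were below 0. An r of -0.5 or below was found in 0 of the 8 and one of at least 0.5 in 0, against 16.3% and 15.2% of all tested genes. The macrophage mean was -0.06 in KO-labelled replicate 5 and -0.23 in WT replicate 1, the 2 arrays with the most Hmox1. Csf1r had an r of -0.49 and Adgre1 one of -0.31, and without WT replicate 2 and KO-labelled replicate 1 these were -0.02 and 0.37. Spic and Vsig4, which mark red pulp and resident macrophages, were below the dim limit in both group means. The 5 muscle genes ranged from -2.09 to 0.96 in the KO-labelled arrays and from -1.18 to 1.67 in WT, with an r of 0.47, and 0.13 without the 2 farthest arrays. Their part in the values of Hmox1 was not tested.

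Blood cells left little signal. Of 8 erythroid genes only Slc4a1 was tested, and it was highest in KO-labelled replicate 1 (4.38 log2). Of 5 neutrophil genes only Csf3r was tested, and S100a8 and S100a9 lay below the dim limit in both group means. The 5 endothelial genes had an r of 0.22, the 9 brown adipocyte genes one of 0.20 and the 6 immediate early genes one of -0.10. Without the 2 farthest arrays these were 0.14, 0.32 and -0.64. The immediate early mean was 1.04 in WT replicate 2 and 0.43 in KO-labelled replicate 1, its highest arrays, where Hmox1 was low and middling.

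**Figure D4:**
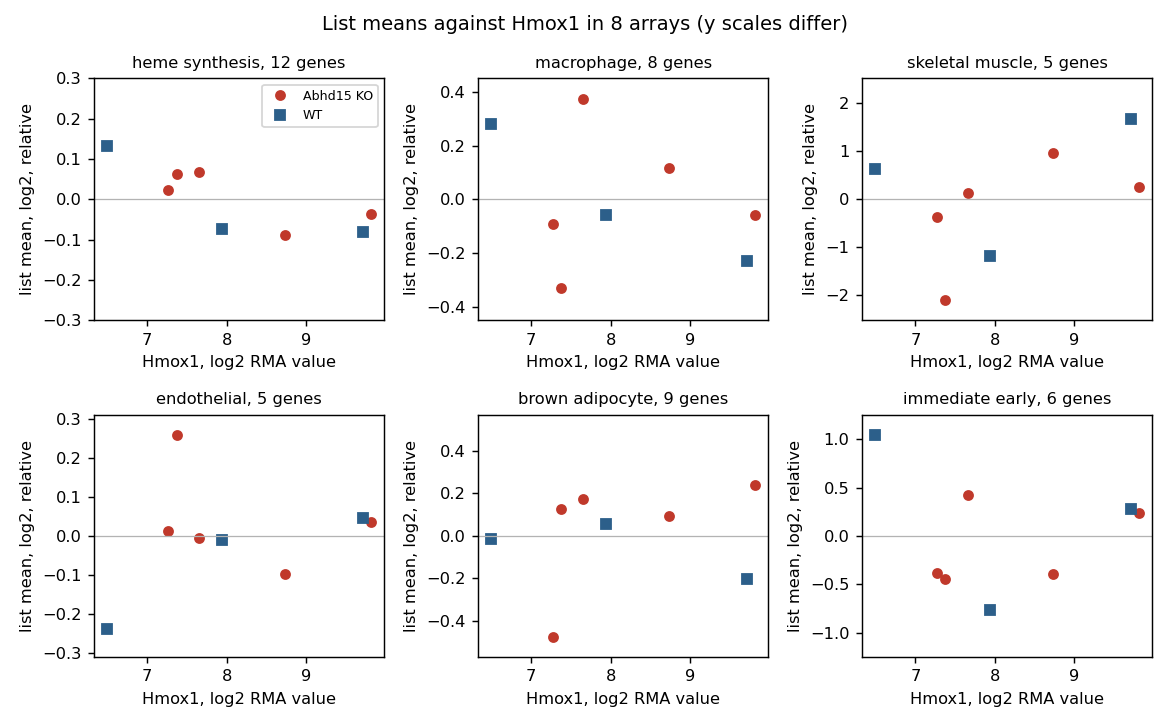
Mean of each list's tested genes relative to its mean over 8 arrays (log2) against the log2 value of Hmox1, with circles for KO-labelled arrays and squares for WT; y scales differ. The heme synthesis mean runs from 0.13 down to -0.09, and the 2 arrays highest in Hmox1 are not high in macrophage genes (-0.06 and -0.23).

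In the comparison of genotypes none of the 10 genes passed. With limma, 0 of 10 had an adjusted p under 0.05 (each 0.9997) and 0 an unadjusted p under 0.05, against 0.0% and 4.01% of the 13229 tested genes. The groups overlapped in all 10, and they did not in 2.77% of tested genes. Differences were above 0 in 6 and below 0 in 4, with a median of 0.04, and 51.7% of tested genes lay above 0. The intervals bound the group difference in Gclm to between 0.805-fold and 1.23-fold and in Hmox2 to between 0.906-fold and 1.37-fold. For Tfrc they run from 0.937-fold to 2.24-fold.

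**Figure D5:**
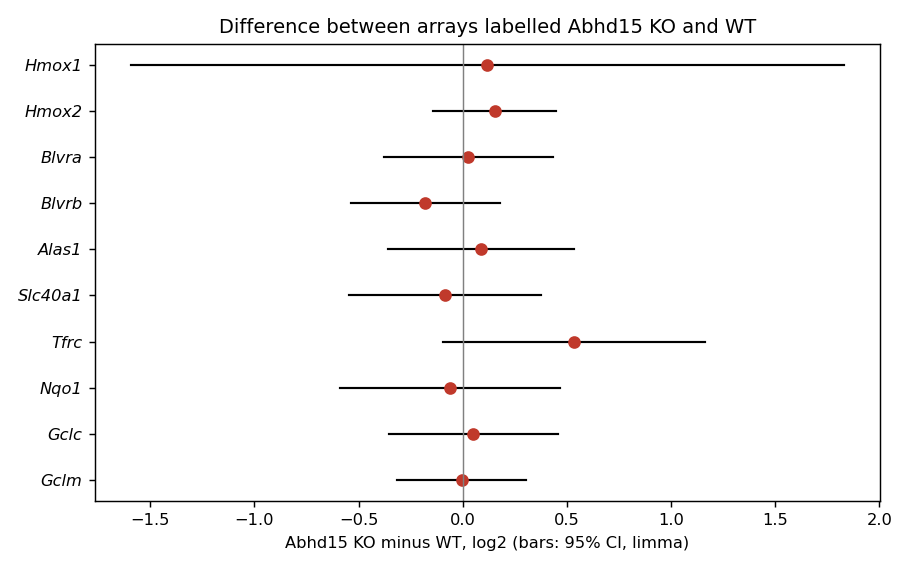
KO-labelled arrays minus WT for the 10 genes in log2 units, with points for the difference and bars for the 95% confidence interval from limma (n = 5 and n = 3). Every interval crosses 0, the widest being that of Hmox1 (-1.59 to 1.83).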

How the data were processed

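RNA from brown fat of 8 mice was measured on Affymetrix Mouse Gene 2.0 ST arrays. The deposited values are log2 signals per probe set, for which the submitters' processing notes list RMA and the oligo package without versions. Expression Console is named elsewhere in the labels, so which program made the table is open. RMA includes quantile normalization, which hides a change common to most genes. No genome build is given in the sources used here.

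The table held 41345 probe sets, array medians of 3.00 to 3.04 log2 and correlations between arrays of 0.964 to 0.975. The platform annotation gave 23521 probe sets 1 symbol, 1814 several (not used) and 16010 none. Entrez identifiers of 23328 matched RefSeq. The brightest probe set stood for each gene. The group difference was fitted by limma 3.58.1 (R 4.3.3; lmFit, eBayes, 1 group term) over 13229 genes, with Benjamini-Hochberg adjustment at 0.05, checked on simulated data. For single genes an exact permutation test was added, which allows no p below 0.0179. The members and the gene lists were chosen with earlier results of these data known. Named in the text are the members, Abhd15, Angptl8 and cell markers. So are the 6 highest and 4 lowest genes by r with Hmox1 (predicted models and small RNAs left out). In each list, members apart, the rule took the 3 genes of lowest p and the 3 of largest SD. The text leaves out some of these (Txn2, Gpx3, Txn1, Txnrd2, Hscb, Cisd1 and Cisd2). Most genes named outside the rule are marked, but some, such as Cat, Sod1, Fth1, Fech, Bach1 and Keap1, are not. Alternatives tried were a block for replicate number, different dim filters, normalization, centring, variance models, array weights, probe set means and arrays left out. Leaving arrays out of the correlations one by one, and the members out of the lists, was added after seeing the data. Same-numbered mice showed no pairing: deviations from the group means correlated by -0.26, -0.10 and 0.02 in the 3 pairs.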

Additional observations from a re-analysis of the deposited data

Results flagged for a closer look

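One result stood apart among the 24 genes checked for a single far array in the group labelled Abhd15 KO, where chance alone would mark about 0.05 of such groups. Angptl8, a gene that feeding induces, read 7.90 log2 in KO-labelled replicate 1, against 10.42 in the nearest of the other 4 arrays. It was put among the 24 because earlier results of these data had named it for the arrays that stand apart. Its mark was therefore known beforehand and tests nothing, and the rate of 0.05 holds for each gene, not for all 24 together. No array of the group labelled Abhd15 KO stood apart in that way in any of the 10 heme, iron and antioxidant genes, and WT, with 3 arrays, was not checked.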

How the results depend on the processing

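In each of 18 alternative group fits 0 genes passed an adjusted p of 0.05 with limma, and the smallest adjusted p of any gene was 0.181, without WT replicate 1. Genes with an unadjusted p below 0.05 numbered 530 of 13229, against 1019 of 22180 with no dim filter, which tests more genes. The lowest count over the settings was 422. The 10 genes had adjusted p-values of 0.94 or more throughout. With the replicate number as a block on the 6 arrays numbered 1 to 3, the differences of Hmox1 (-0.62), Blvra (-0.0363) and Gclc (-0.0927) changed sign, and with the block as a random effect Gclm did (0.0125), as it did with arrays centred on their medians (0.0066). The block changed no call, and the numbers do not pair the mice. Without WT replicate 2 and KO-labelled replicate 1, Hmox1 (-0.53) and Gclc (-0.0585) changed sign. With each array left out in turn, or with that pair left out, the differences ranged from -0.66 to 0.95 for Hmox1, -0.19 to 0.243 for Blvra, -0.0585 to 0.33 for Alas1, -0.231 to 0.13 for Slc40a1, -0.258 to 0.22 for Nqo1, -0.064 to 0.18 for Gclc and -0.11 to 0.0776 for Gclm. Hmox2 (0.073 to 0.22), Blvrb (-0.36 to -0.01) and Tfrc (0.23 to 0.81) kept their sign in all 18. The smallest unadjusted p among these was 0.00661 for Tfrc, without KO-labelled replicate 1, with an adjusted p of 0.959. Of the list medians 3 moved by more than the spread between arrays. The iron-sulfur median was 0.02, and -0.0252 with no dim filter, and over the arrays left out it ranged from -0.0212 to 0.0232. The heme synthesis median, 0.00, ranged from -0.0632 to 0.12. The cause was not tested. Nqo1, near the dim limit, is the member whose precision low signal limits most.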

Other observations

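Iron-sulfur cluster and mitochondrial iron genes varied little among the mice. Of 22 listed, 15 were tested, with a median SD over the 8 arrays of 0.11 log2, against 0.23 over all tested genes, and 0 passed in either direction with limma (0 at an unadjusted p under 0.05). Slc25a37, the mitochondrial iron importer mitoferrin 1, had the lowest unadjusted p, with 6.30, 6.24, 6.16, 6.09 and 6.32 log2 in the KO-labelled arrays, against 5.97, 6.01 and 6.01 in WT. The groups did not overlap, as in 2.77% of all tested genes, and the difference was 0.22 (-0.00 to 0.45). Its relative Slc25a28 differed by -0.12 (-0.35 to 0.11). The cluster assembly genes Isca2 and Bola3 had an r of -0.84 and -0.71 with Hmox1 and are named for it.

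Other antioxidant enzymes varied as little, with a median SD of 0.125 log2 over 21 tested genes, of which 0 passed (0 at an unadjusted p under 0.05). Catalase (Cat) lay between 12.20 and 12.36 log2 and the cytosolic superoxide dismutase Sod1 between 11.01 and 11.20. Extracellular superoxide dismutase (Sod3) ran against Hmox1, with an r of -0.84. The metallothionein Mt2 had the widest spread, from 10.73 to 11.53 log2, with an r of 0.66 over all 8 arrays and 0.40 without the 2 farthest from the Hmox1 median.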
